A study of Mus musculus with 12 samples.

Results

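Ovarian granulosa cells of Ex6DEL mice were compared with those of wild-type (WT) mice 4 h after human chorionic gonadotropin (hCG), on 3 arrays of each genotype. The comparison is described across the 9097 genes, of 18194 with a single symbol in all, whose mean log2 intensity over these 6 arrays lay above the median gene level of 4.59. Ex6DEL mice lack exon 6 of Snf2l, the X-linked gene now named Smarca1. Per the labels, a floxed exon 6 in a 129Sv background was deleted by crossing to a ubiquitous Gata-1 Cre line in a CD-1 background. The deletion then passed through the germline and was kept without Cre on 129SV, so every cell type of these animals carries it, and the WT mice were littermates. At 24 to 26 days of age females of both genotypes were given 5 IU of equine gonadotropin (PMSG) to grow follicles, then 5 IU of hCG 48 h later. Granulosa cells were pressed out of punctured follicles and pooled from 5 mice. The series holds 12 arrays in 4 groups. The other 6, WT and Ex6DEL mice given PMSG alone and collected at 0 h of hCG, are used here only as a reference. Separate pools for the 3 arrays of each group are not stated in the labels. The p-values measure the spread between arrays, which may be technical. Whether the females carried the deletion on both X chromosomes is not stated in the labels used here.

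Granulosa cells line the follicle and nurse the oocyte. Binding of hCG to the luteinizing hormone (LH) receptor raises cyclic AMP, releases EGF-like ligands and switches the cells from estradiol production and division to the ovulatory program: progesterone receptor, prostaglandins, a hyaluronan matrix and progesterone synthesis. SNF2L is an ATPase of the ISWI family, which slides nucleosomes. It is the motor of the NURF complex, together with BPTF and the histone chaperones RBBP4 and RBBP7, and its close relative SNF2H (Smarca5) drives other ISWI complexes. FGL2, named in the series title beside SNF2L, is a fibrinogen-like protein that can cleave prothrombin and also acts as a secreted immune regulator.

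The promoters of 3 genes on which the values below turn are printed here: Fgl2, as the gene of the title, and Epm2aip1 and Resf1, chosen after their values were seen because every probe set of these genes was lower in Ex6DEL. Each sequence runs 5′ to 3′ from 250 bases before to 50 bases after the start of the gene, from RefSeq, build GRCm38.p6, + strand. Capitals mark matches to 4 motifs searched on both strands: the core promoter element TATAAA, the promoter motif CCAAT, which may stand as its reverse complement, the AP-1 element TGAGTCA and the cyclic AMP response element TGACGTCA. The matches do not overlap one another.
Fgl2, chr5:21372423-21372722: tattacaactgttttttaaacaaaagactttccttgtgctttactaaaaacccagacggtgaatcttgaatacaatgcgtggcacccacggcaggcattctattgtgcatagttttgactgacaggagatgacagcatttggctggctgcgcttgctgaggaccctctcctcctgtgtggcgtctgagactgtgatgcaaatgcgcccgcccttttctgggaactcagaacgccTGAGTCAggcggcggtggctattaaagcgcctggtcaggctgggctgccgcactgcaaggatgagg
Epm2aip1, chr9:111271595-111271894: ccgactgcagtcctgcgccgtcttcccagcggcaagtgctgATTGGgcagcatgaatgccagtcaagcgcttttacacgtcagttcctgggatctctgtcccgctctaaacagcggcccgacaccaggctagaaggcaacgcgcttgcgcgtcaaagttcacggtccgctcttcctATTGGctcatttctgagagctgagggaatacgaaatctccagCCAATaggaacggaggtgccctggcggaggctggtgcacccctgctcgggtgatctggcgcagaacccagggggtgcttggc
Resf1, chr6:149309164-149309463: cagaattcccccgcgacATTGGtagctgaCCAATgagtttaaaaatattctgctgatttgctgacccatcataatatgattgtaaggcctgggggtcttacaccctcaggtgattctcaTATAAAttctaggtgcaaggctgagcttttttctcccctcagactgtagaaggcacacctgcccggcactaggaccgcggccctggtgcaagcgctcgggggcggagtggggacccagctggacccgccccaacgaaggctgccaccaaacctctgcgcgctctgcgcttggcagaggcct
The Fgl2 window held 1 TGAGTCA beginning at position -16 from the start. CCAAT began at positions -209, -74 and -32 in the Epm2aip1 window, and at -233 and -221 in the Resf1 window, where TATAAA began at -131. Of 32851 mouse promoter windows of this length, 37.4% held CCAAT, 13.6% TATAAA, 5.2% TGAGTCA and 1.79% TGACGTCA. The windows held 12, 20 and 13 CpG pairs for Fgl2, Epm2aip1 and Resf1, beside a median of 7 over all windows. These matches describe the letters only.

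The deposited values were log2 intensities, on which a difference of 1 is a 2-fold difference. They ran from a floor of 2.21 to 18.18 over the table, and the medians of the 6 arrays lay between 2.79 and 2.87. Granulosa identity was seen in the markers: Inha was at 16.66 to 17.36 in every array, and of 13 measured granulosa markers 12 were above the median level, with Amh at the floor on all 6 arrays. The arrays did not group by genotype. WT replicate 1 and Ex6DEL replicate 1 correlated at 0.985 across the described genes, above all other pairs (0.922 to 0.971), and the first principal component, 51.5% of the variance, set these arrays apart from the rest. Both arrays numbered 1 lay above all 4 others in 2298 genes (25.3%) and below all 4 in 1508 (16.6%). The labels name no batch for this number. Among genes chosen after their values were seen, the hyaluronan receptor gene Cd44 was at 8.76 and 8.84 in the arrays numbered 1 and at 5.13 to 6.63 in the others. The stress-induced mTOR inhibitor gene Ddit4 was at 7.28 and 8.37 against 10.53 to 12.02. Ex6DEL replicate 3 lay apart on the second component (20.1%). At 0 h, Ex6DEL replicate 3 carried raised ovulatory genes: the LH-induced genes averaged 10.39 in that array and 7.47 to 8.07 in the other 5. WT 0 h replicate 1 had the highest mean of immediate early genes among the remaining arrays of that time (8.43 against 6.35 to 6.87), so values set against 0 h are also given without these 2 arrays.

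No gene passed the test of genotype 4 h after hCG (0 of 18194, limma with Benjamini-Hochberg adjustment over all genes, lowest adjusted p = 1). At an unadjusted p under 0.05 there were 200 of the 9097 described genes (2.2%) and 267 of all genes (1.47%). The 3 Ex6DEL arrays lay wholly above or wholly below the 3 WT arrays in 377 described genes (4.14%) and in 528 of all genes (2.9%). Exchanging labels at random leaves 3 arrays against 3 wholly apart at a rate of 0.1 in genes without ties. Both shares lie below that rate. Among the described genes they were higher in Ex6DEL in 85 (0.934%) and lower in 292 (3.21%). That split depended on scaling, with 138 higher and 162 lower after quantile normalization and 59 higher and 519 lower after a shift to one median. Differences were small: their median was -0.11, and the range from the 5th to the 95th percentile was -0.59 to 0.36. The difference was below 0 in 6132 genes (67.4%) and above 0 in 2922. The median was -0.02 after quantile normalization and -0.16 after the shift.

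The precision can be read from the 95% intervals of the fit. Their median reach to either side of the difference was 0.854 on the log2 scale, and the interval of 4076 genes (44.8%) lay inside -1 to 1, that is, within a 2-fold difference either way. The interval of 8052 genes (88.5%) lay inside -2 to 2. A difference of at least 1 was measured in 125 genes (1.37%), with 31 higher and 94 lower in Ex6DEL. In 36 of these (0.396%) the arrays of the groups did not overlap, 9 higher and 27 lower.

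**Figure D1:**
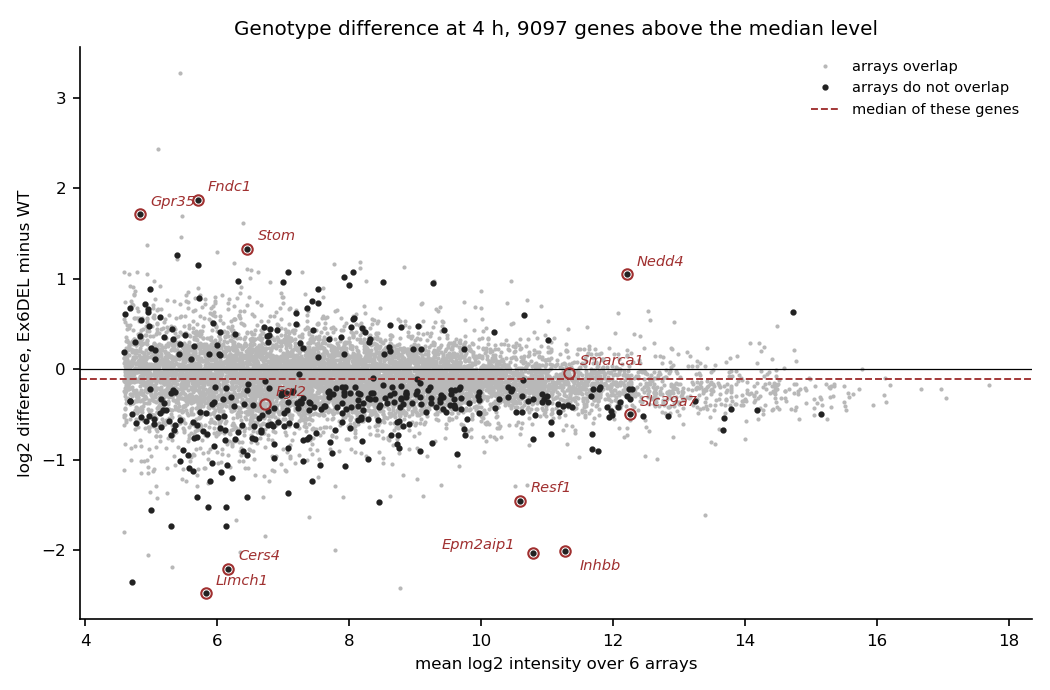
Difference in log2 intensity between Ex6DEL and WT at 4 h (vertical axis) against the mean log2 intensity over the 6 arrays (horizontal axis), 1 point per described gene, 9097 genes. Black points are the 377 genes whose arrays did not overlap between the groups, the dashed line is the median of -0.11, and circles mark genes named in the text.

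Smarca1, the targeted gene, did not separate the genotypes. Its log2 intensity was 12.32, 10.96 and 10.80 in WT replicates 1 to 3 and 12.19, 11.05 and 10.72 in Ex6DEL. The array numbered 1 was the high one in each genotype and the groups overlapped fully. The difference was -0.04 (SE 0.62, 95% interval -1.69 to 1.61, limma adjusted p = 1), with an exact two-sided permutation p of 0.9, where 3 arrays against 3 can reach 0.1 at the lowest. Its sign depended on scaling, being 0.13 after quantile normalization. Its single probe set was not mapped to an exon, and its level is therefore no check of the deletion.

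Fgl2 was at 9.41, 4.96 and 6.40 in WT and at 7.93, 5.86 and 5.83 in Ex6DEL. The arrays numbered 1 were again the highest, the WT arrays spanned the range of the Ex6DEL arrays, and the difference of -0.38 (SE 1.40, interval -4.10 to 3.34, limma adjusted p = 1) was smaller than the spread within WT (SD 2.27, n = 3 arrays). The exact permutation p was 0.8. Without WT replicate 1 the difference turned to 0.86, and without both arrays numbered 1 it was 0.16. The second, dimmer Fgl2 probe set differed by -1.10. The interval of -4.10 to 3.34 holds large differences of either sign, and these arrays do not settle between them.

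The genes with the smallest p among those lower in Ex6DEL were led by Snd1, a transcriptional coactivator and RNA-binding nuclease. It was at 9.31, 9.26 and 9.30 in WT and at 8.97, 8.87 and 8.87 in Ex6DEL, a difference of -0.39 (SE 0.03, limma adjusted p = 1). The arrays within a genotype lay closer together than in most genes, and the nearest arrays of the genotypes stood 0.30 apart. Slc39a7, which releases zinc from the endoplasmic reticulum, was at 12.41, 12.56 and 12.53 against 12.06, 12.01 and 11.95 (difference -0.50, SE 0.05). Rrm1, the large subunit of ribonucleotide reductase, was at 9.19, 9.24 and 9.27 against 8.98, 8.88 and 8.93 (difference -0.31, SE 0.04). Both had narrow groups that did not touch.

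Larger differences among these leading genes came from Resf1, a retroelement silencing factor, at 11.57, 11.47 and 10.91 in WT and at 9.82, 9.66 and 10.11 in Ex6DEL. The lowest WT array stood 0.80 above the highest Ex6DEL array, and the difference was -1.46 (SE 0.23). All 4 probe sets of Resf1 were lower in Ex6DEL, the others by -1.39, -1.16 and -0.92. Lrrc8d, a subunit of volume-regulated anion channels, was at 8.15, 7.89 and 8.26 against 7.15, 7.16 and 6.81 (difference -1.06, SE 0.15), but its second, dim probe set differed by only -0.11. Fam234a differed by -0.71, Elmo1, which helps to activate Rac at the membrane, by -0.67, and Tm2d1 by -0.60. Ckap4, an endoplasmic reticulum protein that binds microtubules, differed by -0.36 and Efr3a, an anchor of a phosphatidylinositol kinase, by -0.26. For Ckap4 the other 3 probe sets differed by -0.30, -0.04 and 0.01, and for Efr3a the other 2 differed in the opposite direction, by 0.12 and 0.08.

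Fewer genes stood higher in Ex6DEL. Nedd4, a HECT-type ubiquitin ligase, was the most abundant of the 10 with the smallest p. It was at 12.04, 11.70 and 11.32 in WT and at 12.90, 12.81 and 12.49 in Ex6DEL, a difference of 1.05 (SE 0.23). The groups did not overlap for this probe set, but the 2 other Nedd4 probe sets, at mean levels of 11.87 and 10.78, differed by -0.06 and 0.15. Stom, which encodes the membrane scaffold stomatin, was at 5.97, 5.44 and 5.96 against 6.69, 7.51 and 7.18 (difference 1.33, SE 0.28). Fbxw16, an F-box protein gene, was at 8.06, 8.11 and 7.92 against 8.85, 8.83 and 9.32 (difference 0.97, SE 0.16).

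Sntb2, a syntrophin of the dystrophin complex, was at 5.33, 5.33 and 5.34 in WT and at 6.18, 5.89 and 6.30 in Ex6DEL, a difference of 0.79 (SE 0.11). Its WT values were nearly the same number. Such ties are common near the low end of the table: 475 of the described genes (5.22%) had at least 3 of their 6 arrays at one value to within 0.001, and a small SE then need not reflect a precise measurement. The other probe sets of Sntb2 differed by 2.11, 1.34 and -0.08. The remaining leading genes were Herc6 (0.67), a ubiquitin ligase gene, the exocyst subunit gene Exoc4 (0.51), Dcaf10 (0.38), the mitochondrial carrier gene Slc25a40 (0.37), Emilin3 (0.23), of the extracellular matrix, and Zfp128 (0.11). Exoc4 had another probe set of like level that differed by -1.06. Emilin3 was at 5.12, 5.12 and 5.12 in Ex6DEL, and Herc6 at 4.52, 4.52 and 4.81 in WT. The caution on tied low values applies to these genes too.

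**Figure D2:**
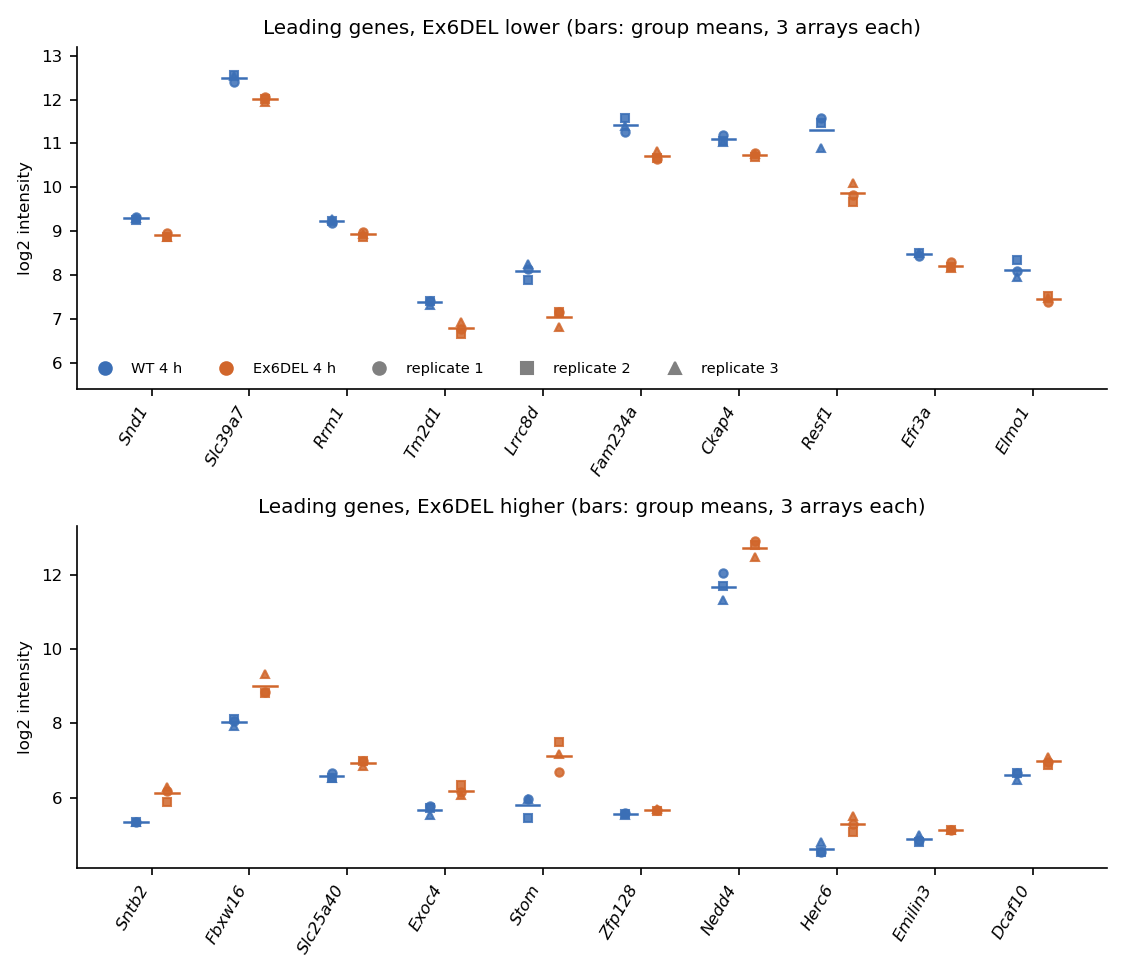
Log2 intensity (vertical axis) of the 10 genes with the smallest p among those lower (top) and among those higher (bottom) in Ex6DEL, each required to have groups that do not overlap. Points are single arrays, 3 per group, with the replicate number as shape, bars are group means, and the gaps in Snd1, Rrm1 and Zfp128 are small beside those in Resf1, Lrrc8d and Stom.

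Several genes chosen after their values were seen had larger differences with wider errors. Epm2aip1, whose protein binds the glycogen phosphatase laforin, was at 12.24, 11.82 and 11.34 in WT and at 9.73, 10.35 and 9.23 in Ex6DEL. The difference was -2.03 (SE 0.39), and the groups stood 0.99 apart at their nearest arrays. All 4 of its probe sets were lower in Ex6DEL, the others by -1.70, -1.09 and -1.06. At 0 h its values lay between 8.94 and 9.995 in all 6 arrays, so the WT arrays at 4 h were the high group and the Ex6DEL arrays at 4 h were near the 0 h level. The interaction of genotype and time did not pass for any named gene (lowest limma adjusted p = 0.876).

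Cers4, a ceramide synthase, was at 6.67, 7.35 and 7.79 in WT and at 5.39, 4.43 and 5.38 in Ex6DEL (difference -2.20, SE 0.43). Its other probe sets, both dim, differed by -0.54 and -0.59. Limch1, an activator of non-muscle myosin, was at 7.16, 6.48 and 7.55 against 5.28, 5.52 and 2.96 (difference -2.48, SE 0.82). Ex6DEL replicate 3, near the floor, carried part of that gap, and without it the difference was -1.66. Tmem242 was at 6.36, 7.27 and 7.36 against 4.24, 5.84 and 5.70 (difference -1.74, SE 0.57), and another of its probe sets, at a mean level of 6.03, differed by -0.01.

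In the other direction, Fndc1, a fibronectin-domain protein gene, was at 5.67, 4.45 and 4.19 in WT and at 6.75, 5.91 and 7.28 in Ex6DEL (difference 1.88, SE 0.57). Gpr35, a G protein-coupled receptor, was at 4.45, 3.51 and 3.96 against 5.16, 5.47 and 6.43 (difference 1.72, SE 0.44). Both are dim, near the median gene level. Irx5, a homeobox gene, differed by 1.26 (SE 0.49) and Ramp3, a partner of the adrenomedullin receptor, by 1.07 (SE 0.36), with 7.76, 7.88 and 7.22 in Ex6DEL against 6.77, 5.92 and 6.95 in WT.

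**Figure D3:**
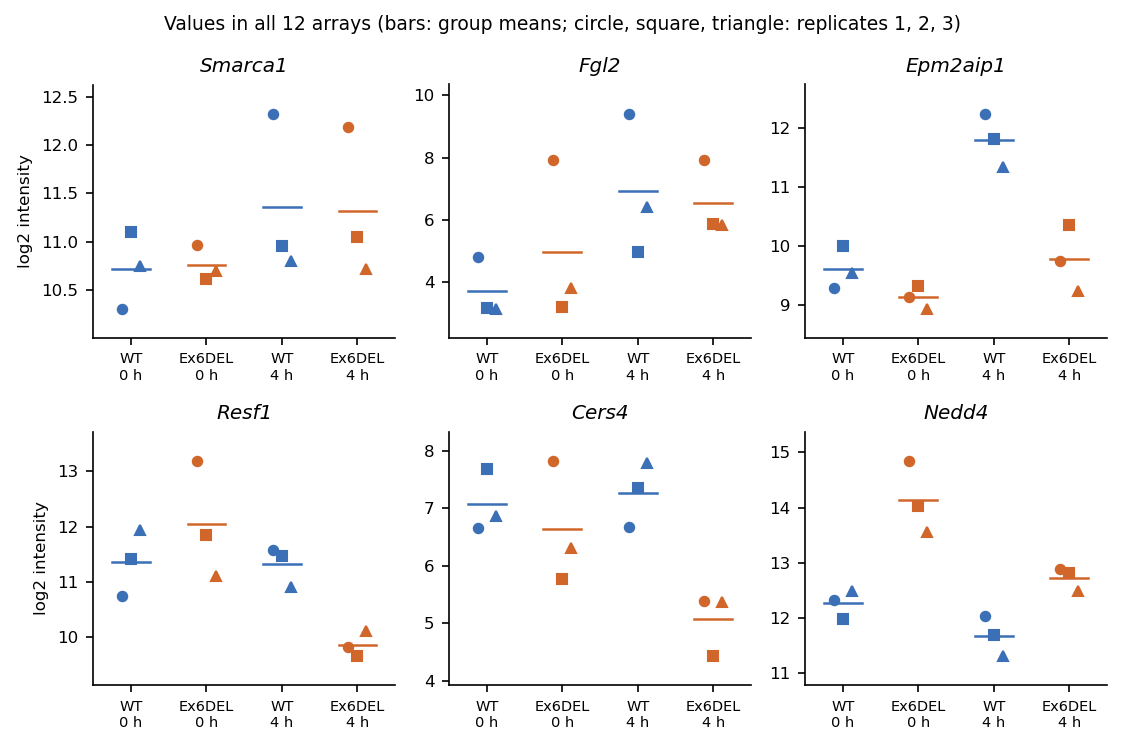
Log2 intensity (vertical axes, each panel on its own scale) of 6 genes in all 12 arrays by genotype and time after hCG. Points are arrays, with the replicate number as shape, and bars are means of 3: Smarca1 and Fgl2 are highest in the arrays numbered 1 at 4 h, Epm2aip1 is high in WT at 4 h alone, and Nedd4 is higher in Ex6DEL at both times.

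The core of the ovulatory program was measured at like levels in both genotypes, within wide intervals. Of 30 described LH-induced genes 14 were higher and 16 lower in Ex6DEL, none was called, none had groups that did not overlap, and the median difference was -0.05, beside -0.11 for all described genes. After quantile normalization 21 were higher and 9 lower. Pgr, the progesterone receptor needed for follicle rupture, was at 14.08, 13.41 and 12.43 in WT and at 14.40, 12.66 and 13.58 in Ex6DEL (difference 0.24, interval -1.51 to 1.98). Ptgs2, the prostaglandin synthase of ovulation, was at 13.88, 12.36 and 10.83 against 13.29, 11.71 and 12.76 (difference 0.23, interval -2.26 to 2.72). In both genes WT replicate 3 was the lowest array and the groups overlapped.

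The EGF-like ligands relay the LH signal through the follicle. Ereg was at 15.10, 15.24 and 13.15 in WT and at 14.48, 14.11 and 14.69 in Ex6DEL (difference -0.07, interval -1.81 to 1.67), and Btc differed by -0.08 (interval -1.60 to 1.44). Of 16 described genes of EGF-like ligands, receptors and ERK feedback 4 were higher and 12 lower (median -0.07), and after quantile normalization 10 were higher and 6 lower. Runx1, a transcription factor induced by LH, differed by 0.04, the neurotensin precursor gene Nts by -0.19, the estrogen sulfotransferase gene Sult1e1 by 0.02, the leptin receptor gene Lepr by 0.29 and the exocytosis gene Snap25 by 0.49. The intervals of all 5 held 0, and that of Snap25 ran from -0.80 to 1.77.

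For the matrix that expands the cumulus, Has2, the hyaluronan synthase, was at 9.99, 8.20 and 6.30 in WT and at 9.69, 7.43 and 8.92 in Ex6DEL (difference 0.52, interval -2.63 to 3.66). Its WT arrays covered the whole Ex6DEL range. Tnfaip6, which links hyaluronan to its binding proteins, differed by -0.12, the matrix pentraxin gene Ptx3 by 0.17 and the protease gene Adamts1 by -0.19. Of 13 described matrix genes 6 were higher and 7 lower, with a median of -0.12, and with 10 higher after quantile normalization. Adamts5, another protease gene of this list, differed by -0.75 (SE 0.47).

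Immediate early genes varied more between arrays than between genotypes. Of 24 described, 7 were higher and 17 lower (median -0.11; 13 and 11 after quantile normalization), and none had groups that did not overlap. Klf4, a Krüppel-like factor, was at 9.12, 8.66 and 8.40 in WT and at 9.03, 9.59 and 9.73 in Ex6DEL (difference 0.72, SE 0.28). Fosl2, an AP-1 factor, was at 14.02, 14.34 and 13.46 against 13.65, 13.22 and 13.51 (difference -0.48, SE 0.27), and its other probe set differed by 0.02. In each the groups overlapped through a single array.

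**Figure D4:**
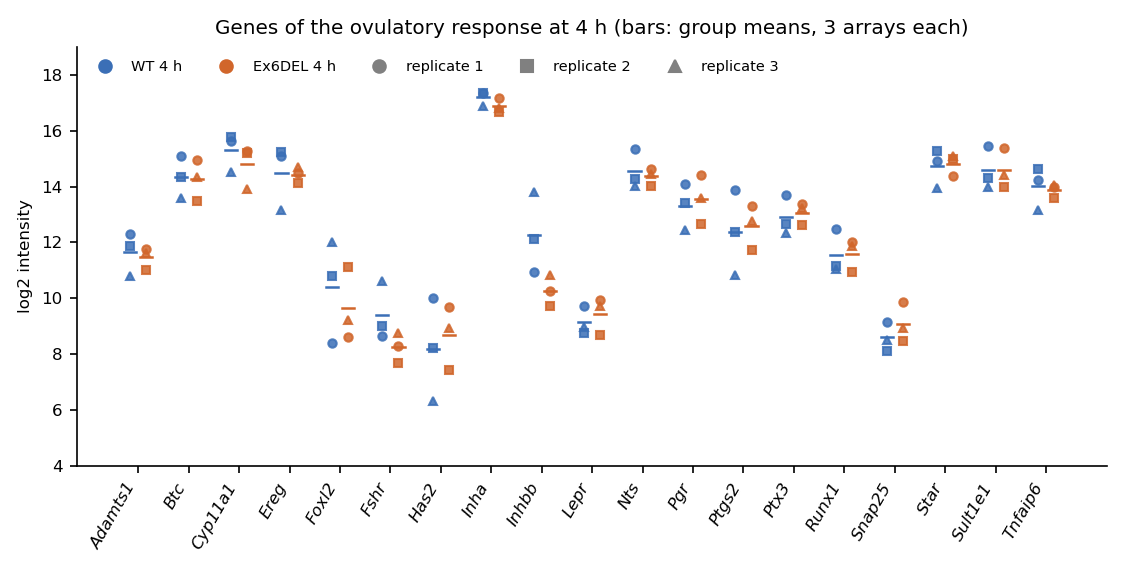
Log2 intensity (vertical axis) at 4 h of 19 genes of the ovulatory response and of preovulatory granulosa cells, with WT in blue and Ex6DEL in orange. Points are arrays, 3 per group, the shape is the replicate number, bars are group means, and Inhbb alone has groups that do not overlap.

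Genes of the preovulatory follicle leaned lower in Ex6DEL. Of 25 described, 23 were lower and 2 higher, with a median of -0.39 (19 lower and 6 higher, median -0.28, after quantile normalization). None was called, and 3 of the 25 had groups that did not overlap, beside 4.14% of all described genes. Amhr2, the receptor of anti-Müllerian hormone, was at 11.79, 12.12 and 12.22 in WT and at 10.97, 11.54 and 11.48 in Ex6DEL, a difference of -0.71 (SE 0.21, limma adjusted p = 1). Its other probe sets differed by -0.76 and -0.67. Greb1, an estrogen receptor cofactor, was at 11.89, 12.48 and 12.32 against 11.74, 11.47 and 10.75 (difference -0.91, SE 0.33).

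Inhbb, which encodes an inhibin and activin subunit, had the largest of these differences, at 10.93, 12.12 and 13.79 in WT and at 10.27, 9.70 and 10.83 in Ex6DEL (-2.01, SE 0.84, interval -4.24 to 0.22). The WT arrays were spread widely (SD 1.44), the gap between the groups was 0.10, and its other probe set differed by -0.47. Without WT replicate 3 the difference was -1.25. At 0 h Inhbb stood at 13.37 to 16.38 in all arrays. Hsd17b1, the enzyme of the last step of estradiol synthesis, was at 12.51, 13.53 and 13.47 against 12.43, 11.45 and 12.64 (difference -0.997, SE 0.46), and Fshr, the receptor of follicle-stimulating hormone, at 8.63, 9.01 and 10.60 against 8.28, 7.69 and 8.76 (difference -1.17, SE 0.64). Inha differed by -0.32, and Foxl2, the factor that keeps granulosa identity, by -0.75 with an SE of 1.23.

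The granulosa markers, which share 11 of their 12 described members with the preovulatory list, leaned the same way: 11 were lower and 1 higher (median -0.42; 9 and 3 after quantile normalization), and their mean level was 11.98 to 12.32 in the WT arrays and 11.63 to 11.78 in the Ex6DEL arrays. Markers of theca and stroma were lower in 15 of 15 under all 3 scalings (median -0.58), at mean levels of 8.47 to 8.73 in WT and 7.82 to 8.59 in Ex6DEL, so the ranges overlapped. Of 21 such markers measured, 6 were below the median level and 3 of those (Dpt, Gli1 and Mfap5) were at the floor in all arrays. Cyp17a1, the androgen-producing enzyme of theca cells, was at 10.41, 12.55 and 11.07 against 9.20, 10.44 and 10.55 (difference -1.29, SE 0.72, or -0.68 without WT replicate 2), and Tagln, a smooth muscle gene, at 8.59, 7.98 and 7.77 against 7.49, 6.69 and 7.76 (difference -0.80, SE 0.38). Markers of the ovarian surface epithelium were lower in 7 of 7 under all 3 scalings (median -0.57), at mean levels of 6.37 to 7.32 against 5.83 to 6.42. Upk3b, a mesothelial gene, differed by -0.99 and the keratin gene Krt18 by -0.57. Their part in the lower granulosa and steroid genes was not tested. In pooled cells, fewer cells of a type and less RNA per cell cannot be told apart.

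Markers of the oocyte leaned the other way, with 13 of 15 higher in Ex6DEL under all 3 scalings and a median of 0.13. With 1 array left out in turn, that median ran from -0.00945 to 0.39, so the lean depended on single arrays. Their mean level was 7.81 to 8.24 in WT and 7.92 to 8.59 in Ex6DEL, with the highest value in Ex6DEL replicate 3, and none had groups that did not overlap. Of the members with the smallest p, the receptor gene Kit differed by 0.72 (SE 0.35), the growth factor gene Bmp15 by 0.55 (SE 0.32) and Ooep, of the subcortical maternal complex, by -0.53 (SE 0.36). Kit and Bmp15 were dim, at mean levels of 4.71 and 4.93. Ex6DEL replicate 2, at 4.38 and 4.59, lay within the WT range in both. Among members chosen after their values were seen, the oocyte growth factor gene Gdf9 was at 10.40 ± 0.55 in WT and 10.52 ± 0.49 in Ex6DEL (SD, n = 3 arrays), and the zona pellucida gene Zp3 at 8.95 ± 0.46 and 9.06 ± 0.67. Figla and Sohlh1 were at the floor in all arrays. Leukocyte markers were higher in 7 and lower in 5 of 12 (median 0.07), endothelial markers higher in 1 and lower in 5 of 6 (median -0.14, Pecam1 at the floor), and red blood cell markers higher in 2 of 3 (median 0.03). Cumulus-enriched markers were lower in 5 of 7 (median -0.26; 4 of 7 and -0.15 after quantile normalization).

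In steroid synthesis, 11 of 14 described genes were lower and 3 higher, with a median of -0.41 (10 and 4, median -0.24, after quantile normalization), and the groups overlapped in all 14. Star, which carries cholesterol into mitochondria, was at 14.93, 15.28 and 13.96 in WT and at 14.40, 14.98 and 15.08 in Ex6DEL (difference 0.09, interval -1.03 to 1.22). Cyp11a1, which then cleaves the side chain, was at 15.62, 15.76 and 14.52 against 15.29, 15.21 and 13.90 (difference -0.50, interval -2.002 to 0.999), and Hsd3b1, which forms progesterone, differed by -0.55 (SE 0.36), or by -0.24 without Ex6DEL replicate 3. Luteal genes were lower in 11 of 12 (median -0.30), and in 9 of 12 (median -0.20) after quantile normalization. Cholesterol synthesis and uptake genes were lower in 14 of 18 (median -0.15), but in 10 of 18 with 8 higher (median -0.02) after quantile normalization. Mvk, the mevalonate kinase gene, was the 1 gene of these 18 with groups that did not overlap (difference -0.31), beside 4.14% of all described genes. Its nearest arrays stood 0.05 apart. Prostaglandin genes were split 6 and 6 (median -0.09), also after quantile normalization (median -0.04). Among them the prostaglandin transporter Slco2a1 was at 9.63, 10.18 and 9.66 against 7.92, 9.66 and 7.68 (difference -1.40, SE 0.61), and Hpgd, which inactivates prostaglandins, differed by -1.13 (SE 0.52).

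Of the 14 ISWI subunit genes, all above the median level, 12 were lower and 2 higher in Ex6DEL (median -0.16). After quantile normalization 8 were lower and 6 higher. Smarca5, chosen for its kinship to Smarca1 after its values were seen, was at 13.33, 12.70 and 12.14 in WT and at 13.31, 12.13 and 12.62 in Ex6DEL (difference -0.04, interval -1.26 to 1.18). Bptf, the large NURF subunit and likewise chosen after its values were seen, differed by -0.15 (interval -1.09 to 0.79). The histone-fold gene Pole3 differed by -0.29 (SE 0.15), Rsf1 by -0.61 (SE 0.48) and Cecr2, which pairs with SNF2L, by 0.48 (SE 0.25). The other Rsf1 probe sets, at mean levels of 4.66 to 5.27, differed in the opposite direction, by 0.19, 0.13 and 0.14. Cecr2 was dim, at 4.32, 4.55 and 4.32 in WT and at 4.38, 5.05 and 5.21 in Ex6DEL. None of the 14 had groups that did not overlap. Of 26 other chromatin remodeller genes 16 were lower and 9 higher (median -0.11), and after quantile normalization 13 were lower and 13 higher (median -0.02).

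Coagulation and fibrinolysis genes, the company of Fgl2, were split, with 7 higher and 6 lower of 13 (median 0.03). After quantile normalization 9 were higher and 4 lower (median 0.13), and after the shift to one median 6 were higher and 7 lower (median -0.01). Serpinb2, an inhibitor of plasminogen activators, had the largest difference of the list, 2.43 (SE 1.39). It was at 6.57, 2.79 and 2.30 in WT and at 7.36, 6.27 and 5.31 in Ex6DEL, so WT replicate 1 lay inside the Ex6DEL range and the other WT arrays near the floor. Thbd, the thrombomodulin gene, differed by -0.69 and Plat, the tissue plasminogen activator gene, by 0.25.

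In the cell cycle, 12 of 23 replication genes were lower and 11 higher (median -0.04; 10 lower and 13 higher after quantile normalization), and 17 of 23 mitosis genes lower and 6 higher (median -0.18; 15 and 8 after quantile normalization). Uhrf1, which guides DNA methylation at replication, was at 7.82, 7.85 and 7.85 against 7.90, 8.05 and 8.07 (difference 0.17), and Plk1, a mitotic kinase, differed by 0.16, opposite in sign to Rrm1 above. Prc1, a spindle midzone protein, was at 9.63, 9.67 and 9.69 against 9.50, 9.34 and 9.47 (difference -0.23, SE 0.05), but its other probe set differed by 0.04. On the probe sets used all 3 had groups that did not overlap, with gaps of at most 0.13 between the nearest arrays. In each of the 2 lists, 1 of 23 genes was higher and 1 lower without overlap, beside 4.14% of all described genes.

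Oxidative phosphorylation genes were lower in 32 of 34 (median -0.21), but after quantile normalization in 22 of 34 (median -0.07). Ndufb8, of complex I, was at 9.67, 9.68 and 9.34 against 9.29, 9.26 and 9.05 (difference -0.37, SE 0.13), and Atp5j, of ATP synthase, differed by -0.42. Ribosomal protein genes were lower in 20 of 22 (median -0.29), and in 15 of 22 (median -0.06) after quantile normalization. The median was -0.24 for hypoxia and glycolysis genes (19 of 24 lower), -0.26 for heat shock genes (10 of 13 lower) and -0.11 for the unfolded protein response (16 of 21 lower), and after quantile normalization these medians were -0.08, -0.07 and 0.01.

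Among signalling genes, 21 of 30 in activin, BMP and TGF-beta signalling were lower (median -0.15), 12 of 17 in the insulin-like growth factor axis (median -0.32) and 12 of 18 in cyclic AMP signalling (median -0.16). After quantile normalization these were 17 of 30 (median -0.02), 12 of 17 (median -0.24) and 11 of 18 (median -0.04). Bmpr1b, a BMP receptor, differed by -0.71 (SE 0.30) and Igfbp5, which binds insulin-like growth factors, by -0.49 (SE 0.22). The other probe sets of Bmpr1b differed by 0.04 and -0.13, and that of Igfbp5 by 0.34. Pde10a, a cyclic nucleotide phosphodiesterase, had the largest positive difference of its list, at 7.84, 6.997 and 6.73 in WT and at 8.98, 7.63 and 8.43 in Ex6DEL (difference 1.16, SE 0.49). Interferon-inducible genes were lower in 12 of 17 (median -0.25; 10 of 17 and -0.22 after quantile normalization), where the guanylate-binding protein gene Gbp2 differed by -0.95, and cytokine and innate immune genes were higher in 5 of 8 (median 0.05; 6 of 8 and 0.15 after quantile normalization). In all of the lists no member was called.

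**Figure D5:**
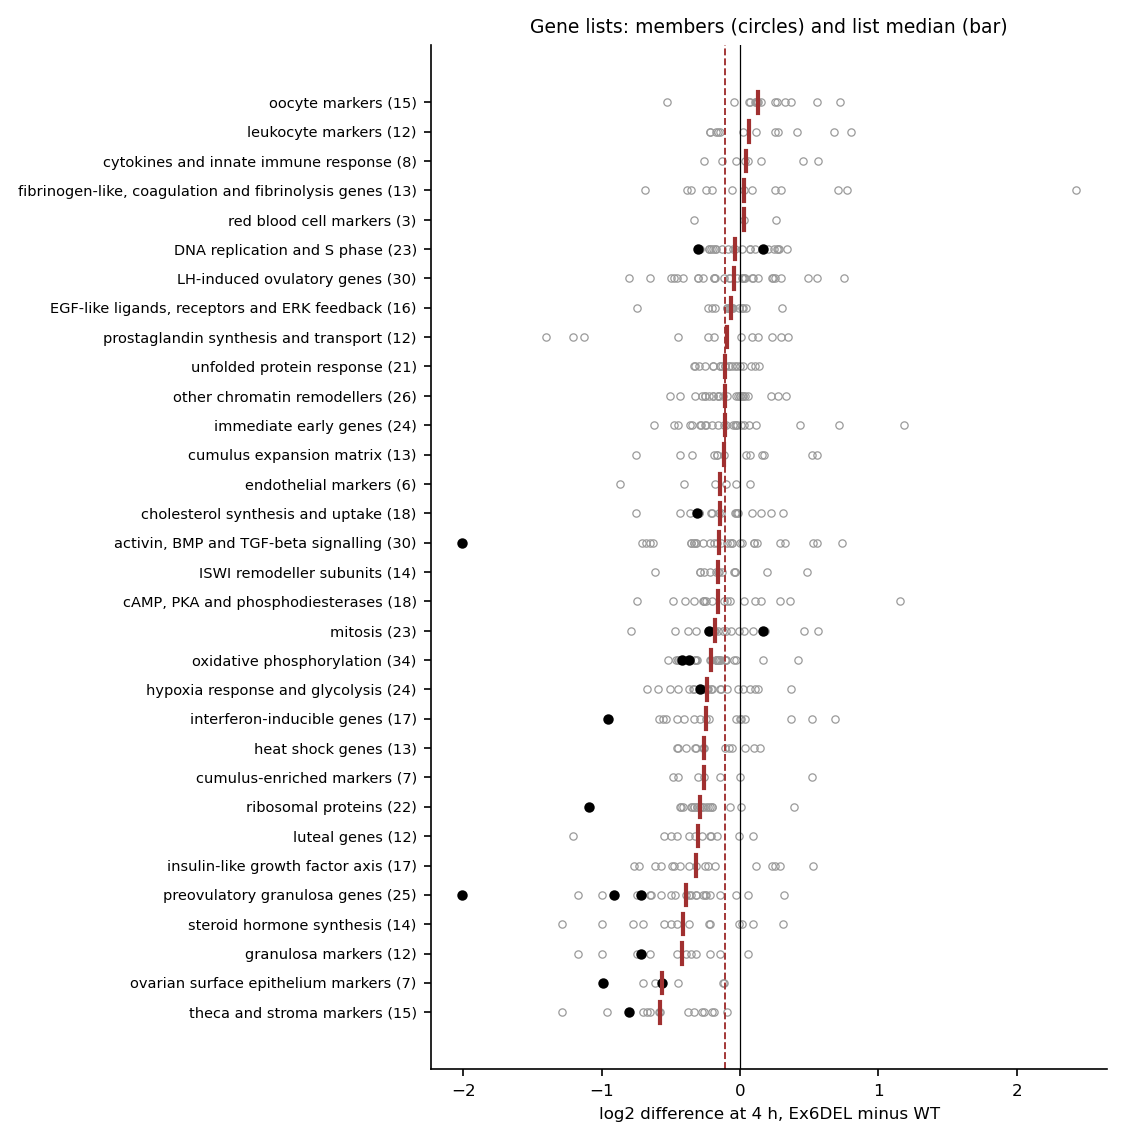
Difference in log2 intensity between Ex6DEL and WT at 4 h (horizontal axis) of the described members of 32 gene lists, with the number of members after each name. Circles are genes, black where the groups did not overlap, the vertical bar is the list median and the dashed line the median of all described genes, -0.11; theca and stroma, surface epithelium and granulosa lists lie farthest left, and oocyte markers farthest right.

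The neighbours of Smarca1 on the X chromosome are inherited with the deleted allele. Of the 10 measured genes nearest on each side in RefSeq order, 11 were described, 7 lower and 3 higher in Ex6DEL (median -0.09). Among these, chosen after their values were seen, Dcaf12l1, the third measured gene before Smarca1, was at 6.18, 6.14 and 6.06 in WT and at 5.15, 5.61 and 5.58 in Ex6DEL (difference -0.68, SE 0.14). Utp14a, a ribosome assembly gene on the other side, was at 8.26, 8.83 and 8.26 against 7.80, 8.04 and 7.87 (difference -0.55, SE 0.19). The groups of these 2 did not overlap, beside 4.14% of all described genes, and neither was called.

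Before hCG, with other arrays, the genotypes differed by a median of 0.20 across the same genes (0.12 without the 2 arrays named above), opposite in sign to 4 h, with 0 of 9097 called, 358 (3.94%) at an unadjusted p under 0.05, and 847 (9.31%) with groups that did not overlap. Without the 2 arrays this share was 38%, over 2 arrays against 2. The differences at the 2 times correlated at -0.06 across genes, which are not independent replicates. Of the 377 genes with groups apart at 4 h, 35 (9.28%) were also apart at 0 h, which is 4.13% of the 847. Of these 35, 15 had the same sign, 10 higher and 5 lower in Ex6DEL, while 20 had opposite signs. Fam234a, of the leading genes, was among the 20, with a difference of -0.71 at 4 h and 0.88 at 0 h. Without the 2 arrays, 144 of the 377 were apart at both times, beside 38% of all described genes apart at 0 h in that setting. Of these 144, 50 had the same sign and 94 had opposite signs.

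Genes with the same sign at both times, chosen after their values were seen, included Nedd4, at 14.85, 14.03 and 13.57 in Ex6DEL and 12.32, 11.99 and 12.49 in WT at 0 h (difference 1.88). Pnmal2 was at 6.60, 6.02 and 7.25 in WT and at 4.46, 5.57 and 5.28 in Ex6DEL at 4 h (difference -1.52, SE 0.46), and differed by -1.30 at 0 h. Itga3, a laminin-binding integrin subunit, was at 8.50, 8.70 and 9.20 against 9.41, 9.88 and 9.98 (difference 0.95, SE 0.26), and by 0.58 at 0 h. Aurkc, a kinase of meiotic cells, differed by 1.15 at 4 h and 1.54 at 0 h, Fndc1 by 1.88 and 1.62, and Col6a4, a collagen VI chain, by 0.72 and 1.42. In the dim Col6a4, Ex6DEL replicate 1 carried much of both differences. It was at 6.17 against 4.88 and 4.77 in the other Ex6DEL arrays at 4 h, and at 7.74 against 4.70 and 5.14 at 0 h. The nearest arrays of the genotypes stood 0.06 apart at 4 h (SE 0.43). Rpl14, at 6.33, 6.29 and 5.76 against 5.39, 5.75 and 3.97, differed by -1.09 at 4 h and -0.62 at 0 h. Its probe set was dim, at a mean level of 5.58, and the groups at 4 h stood only 0.004 apart (SE 0.54). With 1 array left out in turn, the Rpl14 difference at 4 h ran from -1.45 to -0.55. Without the 2 arrays the difference at 0 h was 2.198 for Nedd4, -1.46 for Pnmal2, 0.33 for Itga3, 1.32 for Aurkc and 0.79 for Fndc1. It was 1.87 for Col6a4 and -0.59 for Rpl14. By contrast, several lists that leaned lower at 4 h leaned higher at 0 h. Theca and stroma markers, lower in 15 of 15 at 4 h, were higher in 15 of 15 at 0 h. Their median there was 0.93, or 1.80 without the 2 arrays. Their mean level in Ex6DEL replicate 1 at 0 h was 11.91 against 8.25 to 9.29 in the other 5 arrays. At 0 h preovulatory genes were higher in 24 of 25 (median 0.94, or 0.77 without the 2 arrays). Granulosa markers were higher in 12 of 12 (median 0.83, or 0.67). Oxidative phosphorylation genes were higher in 32 of 34 (median 0.58) and ribosomal protein genes in 20 of 22 (median 1.04). Surface epithelium markers were instead lower in 6 of 7 (median -0.47, or 0.24 without the 2 arrays). Oocyte markers, higher in 13 of 15 at 4 h, were higher in 15 of 15 at 0 h. Their median there was 0.77, or 0.63 without the 2 arrays, beside 0.20 for all described genes. At 0 h Gdf9 differed by 1.62 and Zp3 by 1.86.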

How the data were processed

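RNA of pooled granulosa cells was hybridised to 12 Affymetrix mouse arrays, and the 6 arrays of 4 h were analysed. The authors' deposited table gives a log2 intensity for each probe set, made with GCRMA (version not given) per the submitters' processing notes. It corrects background, normalizes between arrays and summarises probes. Its settings are not given in the sources used here, and low values pile up at a floor. Of 45101 probe sets, 34958 had exactly 1 gene symbol in the platform annotation. Probe sets with several symbols (932) or not listed (9211) were left out. For each of 18194 genes the brightest probe set on average was kept. A linear model with genotype alone was fitted in R 4.3.3 by limma 3.58.1, with eBayes at its defaults, two-sided, adjusted by Benjamini-Hochberg over all genes and called at an adjusted p under 0.05. Intervals are at 95%. Groups were counted as not overlapping where all arrays of one lay beyond all of the other by over 0.001. The fit was tested on simulated data. Precision is limited by having 3 arrays a group.

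The genes, tests and 33 gene lists were chosen with earlier results of these data known. Named genes are Smarca1, Fgl2, 19 ovulatory and preovulatory genes, the 10 genes of each direction with the smallest p among described genes whose groups did not overlap (none being called), and of each list up to 3 members with the smallest p. Others are said to be chosen after their values were seen, and marker genes named at the floor are all of that kind. Predicted genes were counted and not named. The replicate numbers of the titles were tested as pairs: deviations from the group means correlated at 0.73, 0.38 and -0.018 for numbers 1, 2 and 3. The numbers were therefore not used as pairs in the main fit. The arrays numbered 1 did deviate alike, and the main fit leaves that shared deviation in the spread within groups. Alternatives were other scalings, filters, probe set rules, variance models and array sets, each array left out in turn, and, added after the data were seen, both arrays numbered 1 left out and 2 arrays of 0 h left out.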

Additional observations from a re-analysis of the deposited data

How the results depend on the processing

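No gene was called under any alternative except when every probe set was tested by itself, where 1 was called: a probe set of Adamts5 at 5.53, 5.54 and 5.54 in WT and 4.97, 4.97 and 4.97 in Ex6DEL (difference -0.57, limma adjusted p = 3.21e-04), while the Adamts5 probe set used for the gene overlapped between groups. The called probe set had values tied within each genotype and an SE of 0.00526. An Adamts5 probe set at the floor on all arrays had 0.00511. As with Sntb2, so small an SE need not reflect a precise measurement. Fits with 1 array left out called 0 genes each, with the lowest adjusted p between 0.0606 and 0.643. Unadjusted p under 0.05 ran from 102 described genes, with these alone in the fit, to 664 with the replicate number as a block. The replicate block called 0 genes (lowest adjusted p = 0.802) and left the Smarca1 and Fgl2 differences at -0.04 and -0.38. WT replicate 3 deviated most like Ex6DEL replicate 2, so not every array correlated best with its own number.

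The sign turned for Smarca1 under quantile normalization (0.13), array weights (0.0174) and without both arrays numbered 1 (0.00765), for Fgl2 without those arrays (0.16), and for the following genes. Under quantile normalization the values were Adamts1 0.00683, Btc 0.19, Ereg 0.23, Nts 0.0795, Tnfaip6 0.13 and Smarca5 0.17. Under the shift to one median they were Runx1 -0.00625 and Sult1e1 -0.0273. With the mean of all probe sets they were Exoc4 -0.11, Btc 0.00999, Pgr -0.17, Ptgs2 -0.0061 and Runx1 -0.0417, with array weights Btc 0.00169 and Smarca5 0.0193, and without both arrays numbered 1 Ereg 0.20 and Nts 0.0756. The cause was not tested. With 1 array left out, the ranges that crossed 0 were Smarca1 -0.47 to 0.44, Fgl2 -1.36 to 0.86, Adamts1 -0.62 to 0.13, Btc -0.46 to 0.30, Ereg -0.74 to 0.30, Nts -0.45 to 0.21, Smarca5 -0.35 to 0.27, Gdf9 -0.125 to 0.42, Zp3 -0.21 to 0.46, Runx1 -0.22 to 0.50, Sult1e1 -0.38 to 0.45, Tnfaip6 -0.55 to 0.20, Cd44 -0.24 to 1.58, Ddit4 -1.83 to 0.54, Foxl2 -1.75 to 0.0657, Has2 -0.41 to 1.43, Pgr -0.20 to 0.68, Ptgs2 -0.53 to 0.99, Ptx3 -0.11 to 0.56, Star -0.29 to 0.37 and Bptf -0.50 to 0.0878. Of the 94 genes named in the comparison at 4 h these are the 21 that crossed 0, and 31 more kept their sign but moved by over 1.5 times when some array was left out. List medians crossed 0 too: LH-induced -0.41 to 0.22, cholesterol -0.41 to 0.25 and heat shock -0.49 to 0.12. So did interferon-inducible -0.42 to 0.0304 and endothelial -0.57 to 0.0685. Those of the mitosis, unfolded protein response, matrix, EGF-like, immediate early, coagulation, replication, cytokine, oocyte, leukocyte and red blood cell lists did as well. Theca and stroma (-0.75 to -0.32), granulosa (-0.55 to -0.31) and preovulatory medians (-0.48 to -0.23) did not. Values near the floor limit what a difference in dim genes can show.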
